A study of Mus musculus with 8 samples.

Results

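The genes described here are the ubiquitin-conjugating enzymes, or E2 enzymes, of the mouse, taken as every gene of the deposited expression table whose symbol starts with Ube2 followed by a letter. This name rule found 36 of the 25574 genes in the table. It used no measured value, and it leaves out E2 enzymes with other names, such as Cdc34 and Birc6, which are given further on. It goes by name alone, so that a member it takes in, such as Ube2cbp, need not be an E2 enzyme. All samples were oocytes of 8 weeks old CD1 mice that had been primed with 5 IU of pregnant mare serum gonadotropin 46 h earlier and isolated in 100 µM IBMX, an inhibitor that holds the meiotic arrest. After removal of the cumulus cells, the oocytes were cultured for 180 min in medium free of IBMX. Those that underwent nuclear envelope breakdown (NEBD) were selected during this culture, before its end. They then spent 10 min in 0.1 mg/ml cycloheximide, which keeps ribosomes on the mRNA. Each lysate of 200 pooled oocytes was run through a 10 to 50% sucrose gradient and collected as 10 fractions, of which fractions 2 to 5 were pooled as the non-polysomal (NP) dataset and fractions 6 to 10 as the polysomal (P) dataset. There were 4 NP and 4 P libraries and no untreated control, and the comparison asked which mRNAs were associated with polysomes at NEBD.

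Ubiquitin is activated by an E1 enzyme, passed to a cysteine of an E2 enzyme, and transferred from there to a substrate, usually with the help of an E3 ligase. The E2 has a large part in setting which kind of ubiquitin chain is built, and some E2 enzymes carry the related modifiers SUMO, NEDD8 or ISG15 instead. In meiosis, the anaphase promoting complex or cyclosome (APC/C) is an E3 ligase that marks cyclin B1 and securin for destruction, and it works with Ube2c, which starts the chain, and Ube2s, which extends it. Fully grown oocytes do not transcribe, so that the use of stored mRNA is set after transcription.

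The stretch of coding sequence that holds the catalytic cysteine is shown for 4 of the members on which the results turn, since it is what makes these proteins E2 enzymes. Each runs from the codons of the His-Pro-Asn motif (CAC or CAT, then CCN, then AAC or AAT) to the cysteine codon (TGC or TGT) that lies 10 codons after the first of them, both in capitals. The bases come from RefSeq's GRCm38 genome and the exons from GENCODE, and each is written 5′ to 3′ on the strand of the gene. The Ube2c stretch lies in 1 coding exon at chr2:164771947-164771979 (plus strand), that of Ube2s at chr7:4810479-4810511 (minus strand) and that of Ube2d3 at chr3:135459999-135460031 (plus strand). The Ube2g2 stretch crosses a splice junction between chr10:77641569 and chr10:77643491 (plus strand).
Ube2c: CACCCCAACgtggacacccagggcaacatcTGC
Ube2s: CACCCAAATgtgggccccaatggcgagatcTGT
Ube2d3: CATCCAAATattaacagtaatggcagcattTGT
Ube2g2: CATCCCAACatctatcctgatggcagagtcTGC
Of 34 members with a coding transcript, 17 held this arrangement, or 50.0%, against 70 of 21774 genes (0.321%) read the same way with 1 coding transcript each. The search was for these letters alone, and members without them include the Ube2v proteins, which are known to lack the cysteine. They also include Ube2w, Ube2e1, Ube2e2, Ube2e3, Ube2j1, Ube2j2, Ube2z and Ube2o. Ube2k, Ube2h and Ube2u held the His-Pro-Asn codons without a cysteine codon at that spacing. A lack of these letters thus does not mark a member as inactive.

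Expression was given as FPKM, fragments per kilobase of merged exons and scaled to the fragments of the library. Levels of different genes are thus per length of merged exons. This length was not given with the values and was inferred from an annotation or from the values themselves. The inferred length was far above that of the transcript read here in Ube2w (5594 against 543 bases), Ube2t (5352 against 1116) and Ube2s (5148 against 1238). That Ube2w transcript has no 3′ untranslated region, and the length for Ube2s exceeds the deposited span of the gene. An order of levels between genes is therefore uncertain. An FPKM ratio of P to NP is thus a ratio of shares of the 2 pools, and it does not give the share of a gene's mRNA that sat on polysomes. Depth differed between libraries: the spacing of the low values, whose smallest step is called a step here, gave scaling totals of 1299377 to 7594637. The steps of a library summed to 1.72 to 2.22 times this total, so that a step is not 1 fragment of it. All 12 oocyte markers looked up, among them Gdf9 and Zp3, were above 10 FPKM in the mean of at least 1 dataset. Of the markers of granulosa and cumulus cells, 3 of 12 passed 10 FPKM (Cyp19a1, Nr5a2 and Cyp11a1), while Foxl2, Inhba, Has2 and Amhr2 were listed at 0 in all libraries. The summed FPKM of that list was 15.3 to 138 over the NP libraries, compared with 20.3 to 64.0 over the P libraries. Of the blood and immune markers, 5 of 8 were in the table and only Cd68 was above 0, with a sum of 0 to 35.9 in NP and 0 in each P library. Of the 8 endothelial and stromal markers, Pecam1 alone passed 10 FPKM and Cdh5, Col1a1 and Acta2 were at 0, with sums of 12.9 to 63.8 in NP and 6.36 to 78.2 in P. The part of other cells in the results was not tested.

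The E2 family as a whole was well represented. Of the 36 members, 23 were above 0 in all 8 libraries, 9 had a mean above 50 FPKM in at least 1 dataset, and 14 had their higher mean between 10 and 50 FPKM. Ube2l6, the E2 for ISG15, and Ube2nl were listed at 0 in every library and were not tested, which left 34 members. Within the libraries, the median member lay at the 66.8th to 70.9th percentile of all 14292 tested genes in NP and at the 57.8th to 76.6th in P. The summed FPKM of the family was 1456 ± 290 (SD, n = 4) in NP and 1684 ± 659 in P, ranging from 1185 to 1750 and from 1033 to 2541. The sums of the datasets overlapped.

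**Figure D1:**
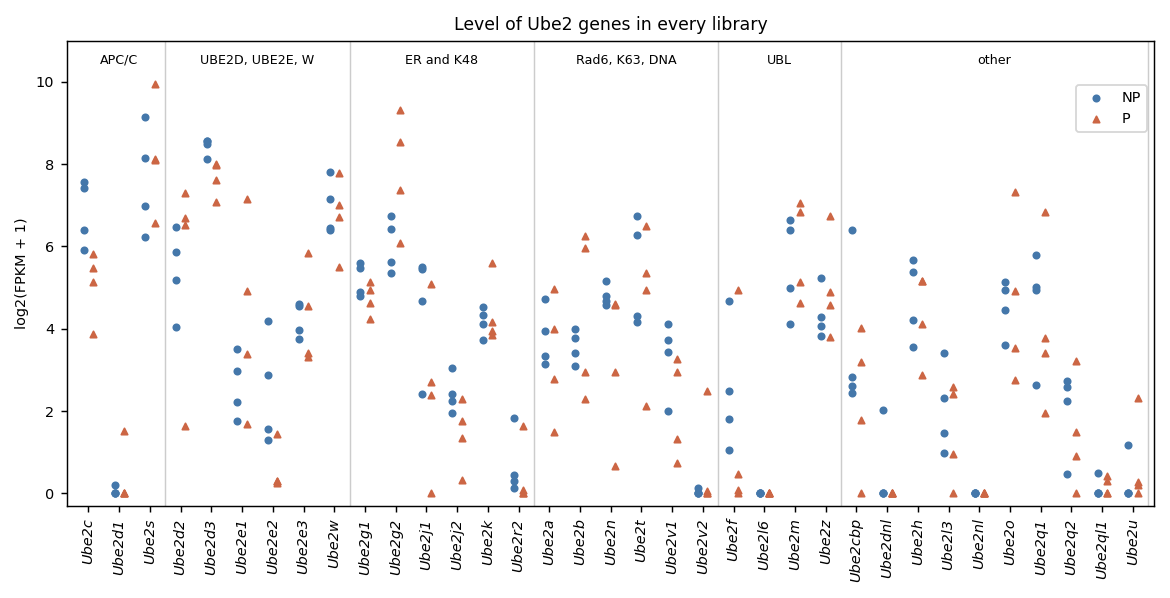
Level of 35 of the 36 Ube2 genes on the log2(FPKM + 1) scale, with 1 point per library (circles NP, triangles P) and the genes grouped by role (APC/C, cofactors of the anaphase promoting complex; UBL, ubiquitin-like modifiers). Ube2c and Ube2d3 are the 2 genes whose NP points all lie above the P points, and Ube2l6 and Ube2nl lie at 0 throughout.

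No member passed the test across all genes. With limma on log2(FPKM + 1) and Benjamini-Hochberg adjustment over the 14292 tested genes, 3 genes (0.021%) had an adjusted p under 0.1 and 0 of the 34 members did, with the lowest adjusted p of a member at 0.420 (Ube2c). At an unadjusted p under 0.05, 1 member was higher in P (Ube2g2), where 68 of all genes (0.476%) were, and 2 were higher in NP (Ube2c and Ube2e2), where 1354 (9.47%) were. The last share for the members was 5.88%. In 2 members (5.88%), Ube2c and Ube2d3, the lowest NP value exceeded the highest P value, against 846 of all genes (5.92%). The reverse, P wholly above NP, held for 0 members, against 51 genes (0.357%). Fold changes of the members ran from −1.97 to 1.79 on the log2 scale, with standard errors of 0.23 to 1.21. Their median was −0.41, and that of all genes −0.39, with 17 members above and 17 below the latter. The sign was positive in 14 members (41.2%), as in 4083 of all genes (28.6%). Centring each library on its median gene shifted the median of all genes to 0.57. Then 7 members were higher in P and 0 higher in NP at an unadjusted p under 0.05, in place of 1 and 2. The share of all genes at that p after centring was not counted, so the 7 are not a result about the members. Under voom, limma's test for counts, on the recovered steps, 173 genes were called, and 0 members.

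**Figure D2:**
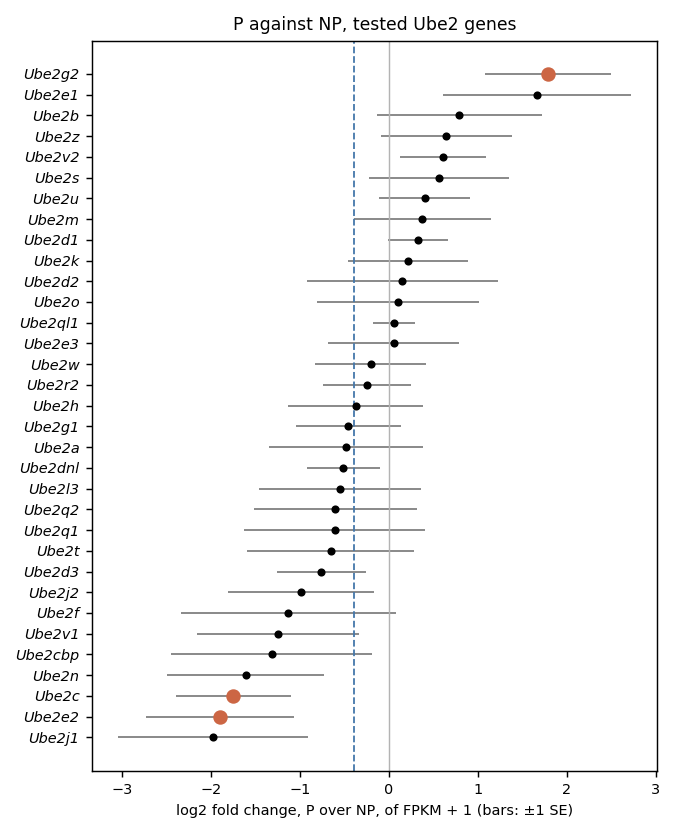
Log2 fold change of FPKM + 1, P over NP, of 33 of the 34 tested Ube2 genes with bars of ±1 SE from limma, in the order of the fold change. The dashed line is the median of all tested genes (−0.39), and the larger coloured points are Ube2g2, Ube2c and Ube2e2, which had an unadjusted p under 0.05; none had an adjusted p under 0.1.

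Of the APC/C-linked members, Ube2c was lower in P. Its FPKM was 170, 59.5, 82.8 and 187 in NP replicates 1 to 4, and 43.5, 55.7, 13.7 and 34.0 in P replicates 1 to 4. The lowest NP library lay above the highest P library. The means were 125 ± 63.2 and 36.7 ± 17.7 (SD, n = 4), and the log2 fold change was −1.74 (SE 0.64), with limma's unadjusted p of 0.0171 and adjusted p of 0.420. With each library left out in turn, the fold change stayed between −2.04 and −1.34 and the unadjusted p between 0.0130 and 0.0568, above 0.05 without NP replicate 1, NP replicate 4 or P replicate 3. With median centring the fold change was −0.79 with a p of 0.273. Of its merged exons 22.8% overlap those of Tnnc2, and the libraries carry no strand, so that reads there cannot be told apart. Other places in the genome matched 17.3% of the Ube2c transcript at 95% identity or more.

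Ube2s, which extends the chains started by Ube2c, was among the most abundant members in both datasets. Its FPKM was 283, 125, 74.1 and 568 in NP and 278, 276, 93.6 and 995 in P. The datasets overlapped, and replicate 4 was the highest in both. The means were 262 ± 222 and 411 ± 399, with a log2 fold change of 0.56 (SE 0.78) and limma's adjusted p of 0.767, and without P replicate 4 the fold change was −0.03. A copy at 99% identity or more elsewhere in the genome matched 80.7% of the Ube2s transcript, so its level is uncertain. Ube2d1, which can also serve the APC/C, was close to 0: it was listed at 0.143 FPKM in NP replicate 1, at 1.86 in P replicate 2 and at 0 in the other libraries.

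The ratio of Ube2s to Ube2c within a library, examined after the values were seen and given without a test, separated the datasets. It was 1.66, 2.10, 0.895 and 3.03 in NP, and 6.39, 4.96, 6.85 and 29.2 in P. The lowest ratio in P lay above the highest in NP. On the log2 scale with 1 added to each FPKM, the means were 0.81 ± 0.73 and 3.11 ± 1.16 (SD, n = 4), a difference of 2.31 that fell to 1.74 without P replicate 4. The copy of Ube2s touches this ratio as well. It was 1 of 11 pairs of related members looked at. In 1 other pair, Ube2e2 to Ube2e3, the datasets were also apart, with P lower, but the low P values of Ube2e2 lie near the floor. How often the ratio of any pair of genes does so was not computed.

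**Figure D3:**
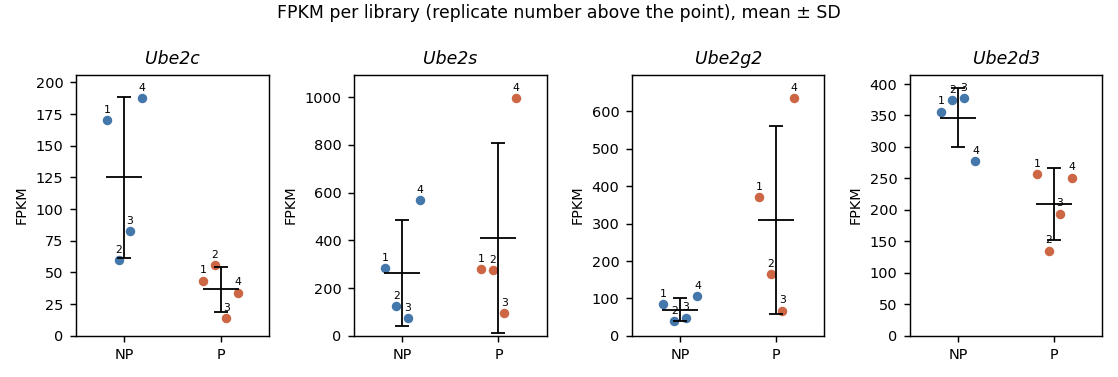
FPKM of Ube2c, Ube2s, Ube2g2 and Ube2d3 in every library, with the mean and SD of the 4 libraries of each dataset; the number above a point is the replicate. The NP points of Ube2c and Ube2d3 lie above all their P points, while the Ube2s and Ube2g2 points overlap and P replicate 4 is the highest of both genes at 995 and 635 FPKM.

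The UBE2D and UBE2E enzymes, which work with many E3 ligases, held the most abundant member in NP. Ube2d3 was at 356, 375, 377 and 278 FPKM in NP and at 257, 135, 194 and 251 in P. All NP libraries lay above all P libraries, although NP replicate 4 and P replicate 1 were close. The means were 346 ± 46.7 and 209 ± 57.1, the smallest relative spread among the abundant members, with a log2 fold change of −0.76 (SE 0.50) and limma's unadjusted p of 0.152. The fold change was 0.20 with median centring. The inferred length for Ube2d3 was 24075 bases against 3833 of the transcript. If that length is right, its FPKM is low relative to that of genes whose exons are used whole. Of the Ube2d3 transcript, 36.4% matched other places in the genome at 95% identity or more. Ube2d2, its close paralog, was at 57.2, 35.3, 87.3 and 15.4 in NP and at 103, 157, 90.7 and 2.11 in P, where replicate 4 stood far below the other 3. Its log2 fold change was 0.15 (SE 1.07) and became 1.46 without P replicate 4, while leaving out NP replicate 4 or P replicate 1, 2 or 3 turned its sign. Other places in the genome matched 70.5% of its transcript at 95% identity or more.

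The 3 UBE2E enzymes are close paralogs, and none passed the test across all genes. Ube2e2 was at 1.94, 17.1, 1.47 and 6.31 FPKM in NP and at 1.73, 0.200, 0.241 and 0.240 in P, so that 3 of 4 P libraries lay below all NP libraries. Its lowest value in a library was 3 steps, so that its P values of 0.200 to 0.241 lie near the floor. Its log2 fold change was −1.90 (SE 0.83), with limma's unadjusted p of 0.0391 and adjusted p of 0.483. Without NP replicate 2, the highest, the fold change was −1.33 with a p of 0.0943, and the p was also above 0.05 without NP replicate 4 or P replicate 2, 3 or 4. The fold change was −0.94 (p of 0.270) with median centring, −1.03 (0.243) with quantile normalization and −3.11 (0.0379) with a pseudocount of 0.1. Ube2e1 was at 6.82, 3.63, 10.4 and 2.36 in NP and 2.20, 29.2, 141 and 9.38 in P. One P library, replicate 3, held 77.5% of its summed P level, and the log2 fold change was 1.67 (SE 1.05) with an unadjusted p of 0.136. A sequence elsewhere at 95% identity or more matched 78.7% of the Ube2e1 transcript. Ube2e3 was at 18.3 ± 5.42 in NP and 24.3 ± 22.1 in P, with a log2 fold change of 0.06. Ube2w, which can attach ubiquitin to the amino terminus of proteins, was at 86.1, 84.2, 140 and 225 in NP and 104, 44.0, 129 and 220 in P, with a log2 fold change of −0.20 (SE 0.62). The fold changes of Ube2e1 and Ube2e2 were not tested against each other.

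Among the E2 enzymes of the endoplasmic reticulum and of K48-linked chains, Ube2g2 was the member with the highest fold change in P. Ube2g2 acts in the destruction of misfolded proteins of the endoplasmic reticulum. It was at 84.4, 40.2, 48.3 and 106 FPKM in NP and at 370, 165, 67.3 and 635 in P. Of the P libraries, 3 lay above all NP libraries, while P replicate 3 lay within the NP range. The means were 69.7 ± 30.8 and 309 ± 251, a ratio of 4.44, with a log2 fold change of 1.79 (SE 0.71), limma's unadjusted p of 0.0238 and adjusted p of 0.441. Without P replicate 4 the fold change was 1.30 with a p of 0.0763, and without P replicate 3 it was 2.37 with a p of 0.00265. The p was also above 0.05 without NP replicate 2, NP replicate 3 or P replicate 1. No other place in the genome matched its transcript at 95% identity over 100 bases, but 10.3% of its merged exons overlap those of Gm49325 and Mir1930. Its paralog Ube2g1 was at 36.7 ± 10.4 in NP and 26.4 ± 7.0 in P, with a log2 fold change of −0.45 (SE 0.59).

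Of the others in this group, Ube2j1, a membrane-bound E2, was at 29.1 ± 18.9 in NP and 10.6 ± 15 in P, with the lowest fold change of all members (−1.97, SE 1.07) and an unadjusted p of 0.0866 in limma's test. Ube2j2 was at 4.58 ± 1.93 and 2.03 ± 1.53. Ube2k, which builds K48-linked chains, was at 17.5 ± 4.28 and 23.1 ± 16.4, and Ube2r2 was near 1 FPKM or below in both means.

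Among the members of DNA damage signalling and K63-linked chains, none passed an unadjusted p of 0.05. Ube2n, which builds K63-linked chains with a Ube2v partner, was at 27.2 ± 5.16 in NP and 13.3 ± 11.4 in P, with a log2 fold change of −1.61 (SE 0.88). Its partner Ube2v1 was at 10.3 ± 5.55 and 4.37 ± 3.89 with a fold change of −1.24 (SE 0.91), but 69.1% of its exons are shared with other annotated genes. Copies at 99% identity or more matched 82.3% of the Ube2v1 transcript. Ube2v2 was near 0 in 7 of 8 libraries. The Rad6 paralogs Ube2a and Ube2b were at 14.2 ± 8.03 and 11.2 ± 3.28 in NP and at 13.3 ± 12.7 and 36.6 ± 36.6 in P. Ube2t, the E2 of the Fanconi anaemia pathway, was at 106, 76.8, 18.9 and 17.0 in NP and 88.6, 40.0, 29.6 and 3.35 in P, with overlapping datasets and a fold change of −0.65 (SE 0.93).

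The E2 enzymes of other modifiers were not separated either. Ube2m, which carries NEDD8, was at 83.6, 98.6, 16.3 and 31.0 in NP and 34.3, 132, 113 and 23.8 in P, with no order between the datasets. Ube2f, the other NEDD8 E2, was at 1.08 to 24.6 in NP and at 29.9 in P replicate 1 but at most 0.389 in the other P libraries. Ube2z, which takes ubiquitin from Uba6, was at 21.1 ± 10.6 and 42.5 ± 42.4. Of the 9 tested members outside these groups, 3 had a positive and 6 a negative fold change. Ube2o, a large enzyme with both E2 and E3 activity, had a mean above 50 FPKM in P alone and was at 11.2, 34.2, 29.5 and 20.8 in NP and 29.0, 10.6, 5.79 and 161 in P, where replicate 4 held 78.0% of the sum. In NP its mean of 23.9 lay below those of Ube2q1 (30.3), Ube2h (29.7) and Ube2cbp (24.6).

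In the make-up of the summed E2 level, the 3 genes with the highest mean share in P, Ube2s, Ube2g2 and Ube2d3, together made up 42.2 to 54.4% in the NP libraries and 34.4 to 74.1% in the P libraries. The share of Ube2g2 was 3.27 to 6.05% in NP and 6.51 to 25.0% in P. That of Ube2c was 4.84 to 10.7% in NP and 1.32 to 4.18% in P. That of Ube2e2, whose low P values lie near the floor, was 0.117 to 1.39% in NP and 0.00944 to 0.0945% in P. That of Ube2d3 overlapped, at 15.9 to 31.8% in NP and 9.89 to 18.8% in P. The FPKM values of Ube2g2, unlike its shares, overlapped between the datasets. How often shares of this kind lie apart was not computed. In NP, Ube2w (9.18%) and Ube2c (8.20%) had higher mean shares than Ube2g2 (4.62%). These shares are tied to each other, since they sum to the whole in each library, and they were not tested.

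**Figure D4:**
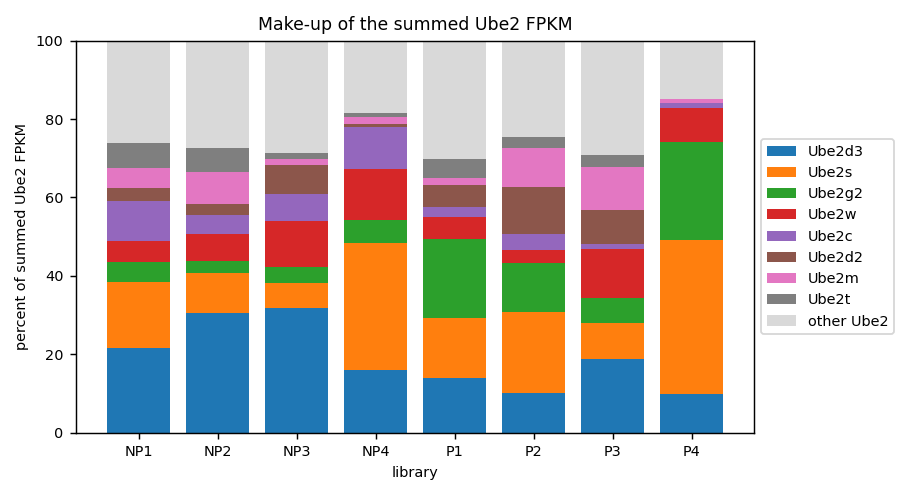
Percent of the summed FPKM of the 36 Ube2 genes taken by the 8 genes with the highest mean share, and by the rest (grey), in each library. The Ube2g2 segment is at most 6.05% in NP and at least 6.51% in P, and the Ube2c segment is larger in each NP library than in any P library.

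Single libraries weighed heavily on the levels of many members in P. In 21 of the 34 tested members 1 P library held over 50% of the summed P level, and in 11 members 1 NP library did so for NP. The share over all tested genes was not computed, so these counts do not set the members apart from other genes. The cDNA had been amplified from small amounts of RNA with random and oligo-dT primers before library preparation, and its part in this spread was not tested.

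The rest of the pathway was read from lists of ubiquitin and E1 genes, E2 enzymes with other names, modifiers with NEDD8 partners, and E3 ligases with their cofactors. Of 46 genes, 44 were tested. Of these, 0 had an adjusted p under 0.1 and 0 an unadjusted p under 0.05 in limma's test. Of all genes, 0.476% were higher in P and 9.47% higher in NP at that unadjusted p. The fold change was positive in 15 of the tested pathway genes and negative in 29, with a median of −0.20. Over all genes it was positive in 28.6%, with a median of −0.39. Of the ubiquitin genes, Ubb was at 267 ± 166 FPKM in NP and 200 ± 116 in P, and Rps27a was at 4.65 ± 4.33 and 5.68 ± 4.88. Uba1, the main E1 for ubiquitin, was at 231 ± 65.4 and 197 ± 82.5. Uba2 (SUMO), Uba3 (NEDD8) and Uba6 had means of 18.4, 21.3 and 2.43 in NP and 27.4, 31.5 and 4.73 in P.

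Birc6, a very large protein with an E2 domain that restrains apoptosis, was the only 1 of these 44 genes with P wholly above NP, against 0.357% of all genes, and the reverse held for 0 of them, against 5.92%. It was at 13.9, 10.5, 14.8 and 5.04 in NP and 20.004, 30.6, 56.6 and 22.4 in P. Its log2 fold change was 1.44 (SE 0.68) with limma's unadjusted p of 0.0523. Cdc34, the E2 of cullin-based SCF ligases, was at 2920, 928, 175 and 571 in NP and 110, 422, 3.92 and 2157 in P. The datasets overlapped, with a log2 fold change of −2.27 (SE 1.42) and limma's unadjusted p of 0.132. The Cdc34 means of 1148 and 673 were above those of every Ube2 member, though such an order is uncertain with inferred lengths.

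The ends of the transcripts were read for letters linked to cytoplasmic polyadenylation, by which stored oocyte mRNAs are known to be activated. The motif TTTTAT or TTTTAAT on the transcript strand, which CPEB1 is known to bind, was looked for in the last 100 bases of 1 coding transcript per gene. It was found in 4 of the 32 members read (12.5%), among them Ube2t, Ube2q2 and Ube2g2, and in 2133 of 10980 genes (19.4%). Windows of 30 bases with the motif in capitals are shown for 2 of them, with fold changes at either side of 0: Ube2g2 at chr10:77645894-77645923 (plus strand, 1.79) and Ube2t at chr1:134974089-134974118 (plus strand, −0.65), GRCm38.
Ube2g2: TTTTATtcatttgtatttattaaatgaaaa
Ube2t: tttgTTTTATttatcttgtacatatgtatt
The Ube2g2 motif lay 94 bases before the end, at the far edge of the stretch read, and a shorter stretch would miss it. The log2 fold change of Ube2q2, which also holds the motif, was −0.60, and the members without it had log2 fold changes of −1.97 to 1.67. The signal AATAAA or ATTAAA was found in the last 50 bases of 29 of the 32 members (90.6%) and in 79.1% of all genes read. These matches are a description of the letters in 1 annotated end per gene, and other ends were not read.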

How the data were processed

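Per the submitters' processing notes and the study's methods, adapters were removed by Trim Galore (0.4.1), quality was checked by FastQC (0.11.5), alignment to GRCm38 used HISAT2 (2.0.5), and SeqMonk gave gene values. The deposited values used here are FPKM per gene and library. A table of the authors' own comparison and a table of expressed genes were not used. Members, lists and alternatives were chosen with earlier results of these data known.

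The test took the 14292 genes whose mean passed 0.1 FPKM in NP or in P, on the scale of log2(FPKM + 1), P against NP, and used limma (3.58.1, trend, R 4.3.3) and Benjamini-Hochberg adjustment over all of them, at a threshold of 0.1. The limma step was tested on simulated data. Values were shown per library for members with an unadjusted p under 0.05, without overlap, or with a mean above 50 FPKM, and for Ube2c, Ube2s and Ube2d1. Per the study, the 4 profiles were independent biological replicates. Copies were searched with blastn (2.17.0) at 95% identity over 100 bases. FPKM values were whole multiples of 1 step for 14084 of the 15585 genes above 0, at a tolerance of 0.01, with a searched gene length in 7106. Alternatives were another pseudocount, filter and scaling, no trend, a block, single libraries left out, and voom. Intervals for counts were not computed. Values of some genes in the counts are not reported here.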

Additional observations from a re-analysis of the deposited data

Results flagged for a closer look

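In groups of 4 libraries, a value was set apart where its gap to the nearest other library, divided by the whole range on the log2(FPKM + 1) scale, passed Dixon's 95% critical value for 4 values. This held for 13 of 67 groups of the tested members, and the share over all tested genes was not computed. The critical value is set to flag about 1 in 20 groups of continuous values. Where all other libraries are at 0, any value above 0 is flagged, so that rate is no reference for such groups. Most flags were in members at or near 0 in the other libraries. Ube2d1 (ratio 1) in NP replicate 1 and P replicate 2, Ube2u (1) in NP replicate 3, Ube2ql1 (1) in NP replicate 3, Ube2v2 (1) in NP replicate 3 and Ube2dnl (1) in NP replicate 2 were above 0 in that library of the dataset alone. In P replicate 1, Ube2f (0.904) was at 29.9 FPKM against at most 0.389, Ube2r2 (0.954) at 2.13 against at most 0.0537, Ube2u (0.885) at 4.02 against at most 0.203 and Ube2e2 (0.960) at 1.73 against at most 0.241. In P replicate 3, Ube2v2 (0.972) was at 4.63 FPKM against at most 0.0498. In NP replicate 1, Ube2cbp (0.901) was at 83.0 FPKM against 4.39 to 6.08. The only flag of a low value was Ube2d2 in P replicate 4 (0.861), at 2.11 FPKM against 90.7 to 157.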

How the results depend on the processing

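No member and no pathway gene was called at an adjusted p under 0.1 under any of the 16 alternatives. Members at an unadjusted p under 0.05 were 7 higher in P and 0 higher in NP with median centring, and 1 higher in NP with quantile normalization. With single libraries left out, 0 to 1 members were higher in P and 1 to 4 higher in NP, and 0 to 5 pathway genes passed. Pathway genes at that p were 5 with median centring, 2 without a filter, 2 with quantile normalization, 3 without the trend and 2 with voom. Shares of all genes at that p were not counted under the alternatives. The median of the members minus that of all genes was −0.02, from −0.14 to 0.21 with libraries left out, and 0.58 with voom. Genes called among all were 5 with a filter at 1 FPKM, 5 with a pseudocount of 0.1, 20 without the trend, 1 with the block, 173 with voom, 0 with median centring, 0 with quantile normalization, 0 without a filter, and 0 to 5 with libraries left out, against 3. The cause of these shifts was not tested.

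The sign was the same under all alternatives in 4 of 11 members given by library. It turned with median centring in Ube2w (0.76), Ube2t (0.30) and Ube2d3 (0.20). With libraries left out, values of members that turned spanned −0.43 to 1.46 in Ube2d2, −0.10 to 0.81 in Ube2m, −0.80 to 0.73 in Ube2o, −0.026 to 1.11 in Ube2s, −1.24 to 0.22 in Ube2t and −0.55 to 0.22 in Ube2w. The log2 ratio of Ube2s to Ube2c differed by 1.74 to 2.58 in alternatives chosen after seeing the data.

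Each gradient gave an NP and a P pool, and libraries of the datasets share replicate numbers, but no source used here states that equal numbers mark the same gradient. Deviations of same-numbered libraries correlated at 0.0518 to 0.251 over 11374 genes, and others at −0.135 to 0.136. Each P library was closest to the NP library of its own number. The same held from the NP side, except that NP replicate 2 was closest to P replicate 1. In a fit with a block for these numbers, 1 member was higher in P and 3 higher in NP at an unadjusted p under 0.05, and 3 pathway genes passed. The unadjusted p with the block was 0.00553 for Ube2g2, which was higher in P than in NP at each of the 4 numbers, 0.0122 for Ube2c and 0.0471 for Ube2e2. Depth limits the low members most: among members with a mean above 50 FPKM in a dataset, the lowest value of a library was 14 steps. The lowest value of Ube2e2 was 3 steps.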
